A study of Populus deltoides x Populus x canadensis with 6 samples.

Results

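The 6 genes described here, named as regulators of the vascular cambium in poplar, were taken by their identifiers. They are 2 genes named WOX4, 2 named PXY, and the ARBORKNOX genes ARK1 and ARK2. Of these 6 identifiers, 5 had a row among the 35792 rows of the deposited table, and all 5 were among the 27382 genes tested. No row carried the identifier listed for ARK1, so ARK1 was not analysed here. The names were given with the list of identifiers and were not checked by sequence, since the rows of the table carry identifiers and no gene names.

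RNA was sequenced from stems of the hybrid poplar clone Nanlin 895. One group was the wild type and the other was a line of the same clone labelled pdbri1-1;2;3;6, a genotype label that names mutations in 4 genes of the BRI1 family. BRI1 is the cell surface receptor kinase for brassinosteroids, and the series asks how these steroid hormones act on the cambium of the woody stem. Plants of both groups were 45 days old and came from a greenhouse with 16 h days and 8 h nights. A library represents the basal 2 cm of stem, without leaves, from a pool of 30 plants, and there were 3 pools per genotype. How the mutations were made, and whether the mutant plants descend from 1 event, is not given in the sources used here. Library totals ran from 17752822 to 21096052 counts, and replicates differed by more than sampling noise, with a chi-square per gene of 1.84 to 2.62 where sampling noise alone gives about 1.

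The cambium is a sheet of dividing cells that leaves wood (xylem) on its inner side and phloem on its outer side. In Arabidopsis, PXY (also called TDR) is a leucine-rich repeat receptor kinase that binds a peptide ligand released from the phloem. It holds back xylem differentiation and promotes divisions of cambial cells, the latter through the homeobox transcription factor WOX4. GSK3 kinases, which brassinosteroid signalling switches off, also act beneath PXY in Arabidopsis. ARK1 and ARK2 are KNOX homeobox transcription factors of poplar, counterparts of the Arabidopsis genes SHOOT MERISTEMLESS and BREVIPEDICELLUS, and ARK2 is known for keeping cambial cells from differentiating. The names of the pathway's other members could not be tied to identifiers, so ligands, co-receptors and targets outside the list were not analysed here, nor were marker genes of the stem's tissues or the BRI1 genes themselves.

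The mutant stem had less ARK2 and less WOX4b RNA, more WOX4a and more PXYa RNA, and a level of PXYb that differed little. By edgeR's quasi-likelihood test, 2 of the 5 genes were higher in the mutant and 3 were lower at an adjusted p under 0.05, with PXYb the smallest change and the only one whose direction depended on the scaling and whose call depended on single libraries. Changes were common in this comparison: 33.1% of all tested genes were called higher and 31.0% lower, 64.1% in all, so that a call by itself sets none of these genes apart. In CPM scaled by TMM factors (library totals adjusted for composition), levels did not overlap between genotypes for any of the 5 genes, as was true of 34.5% of tested genes on the higher side and 32.6% on the lower side. For PXYb this rests on a narrow gap that is absent in FPKM. The 2 genes of each pair moved unequally. Because each library is a whole stem piece, fewer cambial cells and less RNA per cell cannot be told apart.

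**Figure D1:**
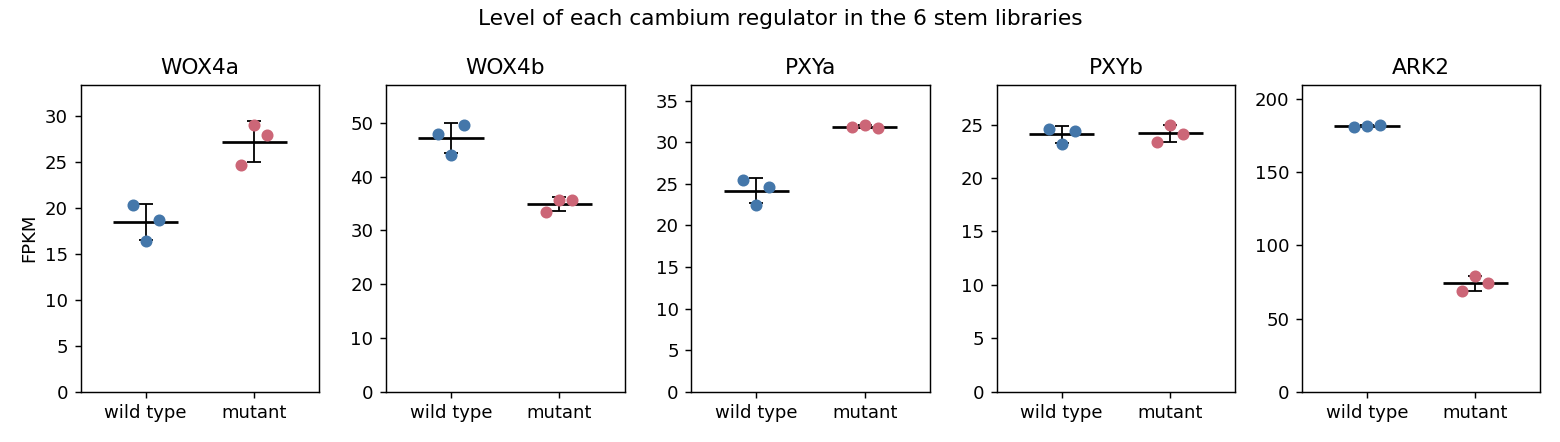
FPKM (vertical axes, each starting at 0) of the 5 genes in the 3 wild type (blue) and 3 mutant (red) libraries; points are libraries, horizontal lines are means and error bars are SD. ARK2 lies between 181 and 182 FPKM in the wild type and between 69.0 and 79.1 in the mutant, while the PXYb points of both genotypes overlap.

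ARK2 was the most abundant of the 5 genes and fell the most. Potri.002G113300.v4.1, on chromosome 2 by its identifier and 2216 bp long by the deposited values, had counts of 7194, 8215 and 8526 in wild type libraries 1 to 3 and of 3172, 3112 and 3025 in mutant libraries 1 to 3. Per length and library total this was 181, 181 and 182 FPKM in the wild type and 69.0, 79.1 and 74.4 FPKM in the mutant. All mutant libraries lay far below all wild type libraries. The mean level was 182 ± 0.798 FPKM in the wild type and 74.2 ± 5.08 FPKM in the mutant (SD, n = 3 each). With libraries scaled by TMM factors, the log2 fold change of mutant over wild type was -1.42 (SE 0.037, 95% interval -1.49 to -1.34, adjusted p = 7.2e-33 by edgeR's quasi-likelihood test), which left the mutant at 37.5% of the wild type level. A fall this large was less common than a call: 5.19% of tested genes were called and at least 2-fold lower, and 787 of the tested genes (2.87%) fell by as much as ARK2 or more. In the wild type 383 tested genes had a higher mean FPKM than ARK2, and in the mutant 1414 did. By mean CPM, which is not corrected for length, these numbers were 169 and 838.

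WOX4, the homeobox factor that acts beneath PXY, had a higher and a lower gene copy, and these moved in opposite directions. WOX4b (Potri.002G124100.v4.1, chromosome 2, 1069 bp) had counts of 920, 962 and 1119 in wild type libraries and of 741, 678 and 699 in mutant libraries, or 47.9, 44.0 and 49.6 FPKM against 33.4, 35.7 and 35.6 FPKM. The groups did not overlap. Its mean fell from 47.2 ± 2.87 to 34.9 ± 1.32 FPKM (SD, n = 3 each), with a log2 fold change of -0.56 (SE 0.055, 95% interval -0.67 to -0.45, adjusted p = 1.16e-12, edgeR).

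WOX4a (Potri.014G025300.v4.1, chromosome 14, 1283 bp) had the lowest counts of the 5 genes, at 468, 430 and 506 in wild type stems and 657, 660 and 656 in mutant stems. Its levels were 20.3, 16.4 and 18.7 FPKM in the wild type and 24.7, 29.0 and 27.9 FPKM in the mutant, so that every mutant library again lay outside the wild type range, here above it. The mean rose from 18.5 ± 1.97 to 27.2 ± 2.23 FPKM (SD, n = 3 each), with a log2 fold change of 0.43 (SE 0.071, 95% interval 0.29 to 0.58, adjusted p = 1.18e-06, edgeR). Counting error alone gives WOX4a a coefficient of variation of 4.62% in the wild type, against 10.7% observed between its libraries. Rises of this size were frequent, since 24.7% of tested genes rose by as much or more. The share that fell by as much as WOX4b was 11.3%. That share is taken at a larger change (-0.56 against 0.43), so the 2 shares are not on like terms.

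The receptor gene PXYa rose as well. PXYa (Potri.003G107600.v4.1, chromosome 3, 4075 bp) had counts of 1860, 1874 and 2115 in wild type libraries and 2693, 2322 and 2370 in the mutant libraries. These are 25.4, 22.5 and 24.6 FPKM against 31.8, 32.1 and 31.7 FPKM, with the mutant libraries close together and all above the wild type. The mean was 24.2 ± 1.51 FPKM in the wild type and 31.9 ± 0.205 FPKM in the mutant (SD, n = 3 each), and the log2 fold change was 0.28 (SE 0.042, 95% interval 0.19 to 0.36, adjusted p = 1.34e-07, edgeR). As many as 30.9% of tested genes rose by at least this much.

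PXYb (Potri.001G126100.v4.1, chromosome 1, 3659 bp) had 1616, 1735 and 1886 counts in wild type libraries against 1777, 1622 and 1621 in mutant libraries. In FPKM it stood at 24.6, 23.2 and 24.4 in the wild type and at 23.4, 25.0 and 24.1 in the mutant, where the groups overlap and the means, 24.1 ± 0.766 and 24.2 ± 0.787 FPKM (SD, n = 3 each), nearly coincide. With TMM factors, which do not enter the deposited FPKM, its log2 fold change was -0.12 (SE 0.043, 95% interval -0.20 to -0.031, adjusted p = 0.016, edgeR). On this scale the mutant stood at 92.2% of the wild type. With library totals only, the value was 0.0052 (adjusted p = 0.925, edgeR), so that the direction turned. The call was lost without wild type replicate 1 (log2 fold change -0.11, adjusted p = 0.0688, edgeR), without wild type replicate 3 (-0.11, adjusted p = 0.0617) and without mutant replicate 1 (-0.095, adjusted p = 0.0704).

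**Figure D2:**
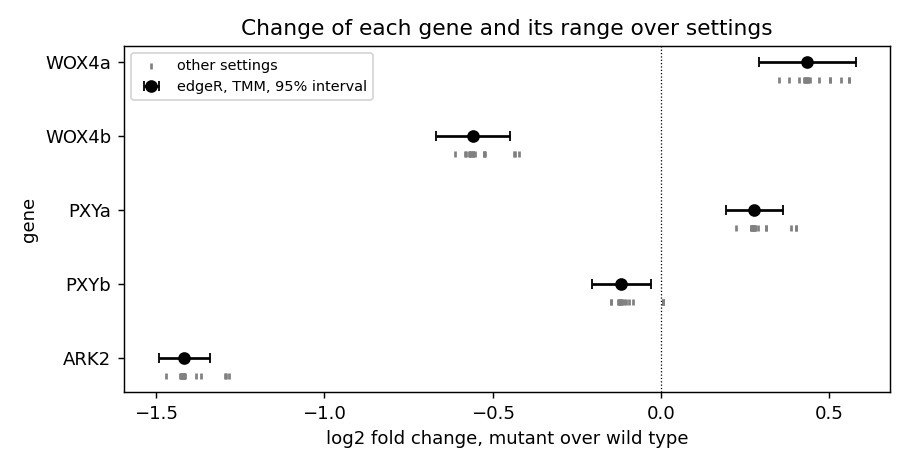
Log2 fold change of mutant over wild type (horizontal axis) for each gene; black points are the edgeR values with TMM factors, bars their 95% intervals, and grey ticks below them the values under the other settings tried. The ticks of PXYb reach across 0, to 0.0056, and those of the other 4 genes stay on the side of their black point.

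The choice of scaling shifted all genes alike. With library totals in place of TMM factors, the median over all tested genes went from 0.01 to 0.13 on the log2 scale. Relative to that shifted median, the 5 genes stood at -1.42 for ARK2, -0.57 for WOX4b, -0.12 for PXYb, 0.27 for PXYa and 0.43 for WOX4a.

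**Figure D3:**
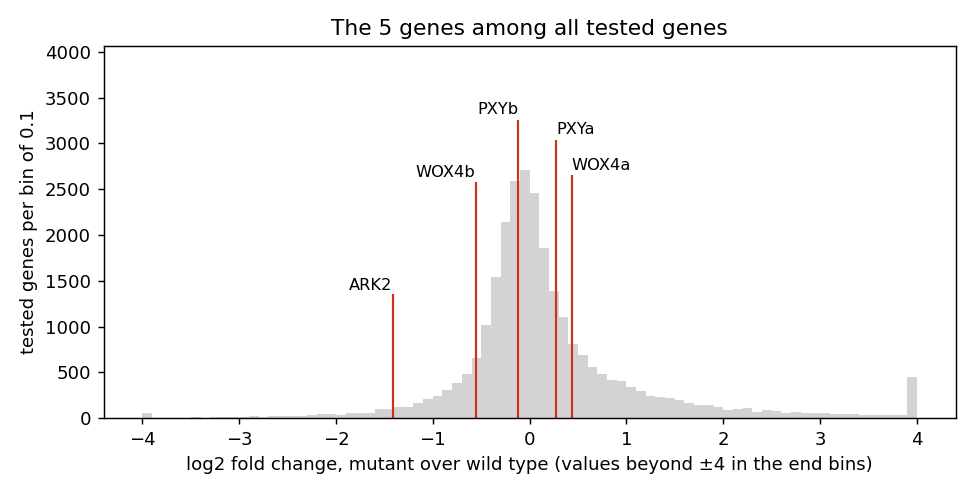
Number of tested genes (vertical axis) in bins of log2 fold change of mutant over wild type (horizontal axis), in grey, with the 5 genes as red lines whose heights carry no meaning. ARK2 lies in the sparse lower tail at -1.42, and the other 4 lie within the broad centre, between -0.56 and 0.43.

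Within a library, a comparison of 2 genes does not depend on the scaling. WOX4a took 29.8%, 27.1% and 27.4% of the summed FPKM of its pair in the wild type libraries and 42.5%, 44.8% and 43.9% in the mutant libraries. The balance therefore moved toward WOX4a in every mutant library, from 28.1% ± 1.46 to 43.7% ± 1.16 (SD, n = 3 each), although WOX4b stayed the higher of the pair. WOX4b stood 2.57 ± 0.180 times as high as WOX4a in the wild type and 1.29 ± 0.061 times in the mutant. The log2 fold changes of WOX4a and WOX4b differed by 0.99 (95% interval 0.81 to 1.17, from the edgeR standard errors).

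The PXY pair shifted less. PXYa held 50.8%, 49.2% and 50.2% of the pair's FPKM in the wild type, an even split, and 57.6%, 56.2% and 56.8% in the mutant. The mean share moved from 50.1% ± 0.799 to 56.9% ± 0.706 (SD, n = 3 each), and the log2 fold changes of PXYa and PXYb differed by 0.39 (95% interval 0.27 to 0.52). For both pairs the two-sided exact permutation test of the share gave p = 0.1 (0.1 adjusted over both pairs), the smallest p that 3 against 3 libraries allow. How reads that fit both genes of a pair were counted is not given in the sources used here, so the split within a pair is uncertain to that extent.

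**Figure D4:**
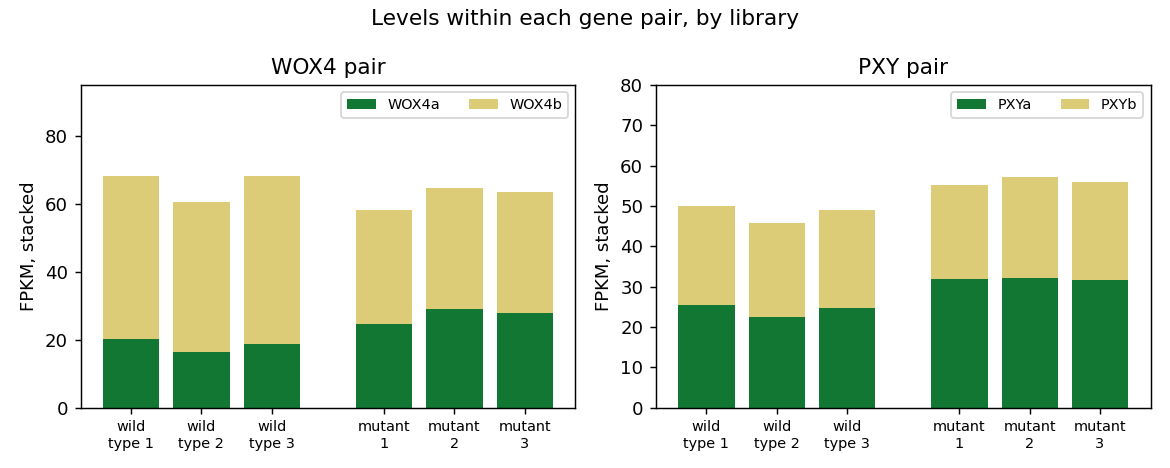
Stacked FPKM (vertical axes) of both genes of each pair in the 6 libraries, the first gene in green and the second in yellow. The green part grows from a mean of 18.5 to 27.2 FPKM for WOX4a and from 24.2 to 31.9 FPKM for PXYa, while the height of the WOX4 bars overlaps between genotypes in these FPKM, and not after division by the TMM factors.

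The pair totals differed from the single genes. WOX4a and WOX4b summed to 65.7 ± 4.54 FPKM in the wild type and 62.1 ± 3.54 FPKM in the mutant (SD, n = 3 each), with overlapping libraries on this scale. Setting each mutant library against each wild type library gave ratios of 0.850 to 1.07 for this sum. The PXY sum was 48.2 ± 2.27 FPKM in the wild type and 56.0 ± 0.934 FPKM in the mutant, and its ratios ran from 1.10 to 1.25. When FPKM were divided by the TMM factors, the ratio of means moved from 0.946 to 0.868 for WOX4 and from 1.16 to 1.07 for PXY. On that scale the WOX4 sums no longer overlapped, at 62.9 to 71.3 in the wild type and 55.5 to 62.2 in the mutant, so that whether the WOX4 total differed depends on the scaling. The WOX4 sum was 1.36 ± 0.036 times the PXY sum in the wild type and 1.11 ± 0.049 times in the mutant, a ratio that no scaling of libraries can move.

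The order of mean FPKM differed between genotypes at its lower end only, where the means of WOX4a and PXYb changed places. By mean CPM, which is not corrected for length, PXYb stood above WOX4a in both genotypes. These means were 91.9 against 24.7 in the wild type and 84.8 against 33.4 in the mutant. In the wild type it was ARK2, WOX4b, PXYa, PXYb and WOX4a, and of the neighbours in that order only PXYa and PXYb overlapped. In the mutant it was ARK2, WOX4b, PXYa, WOX4a and PXYb, and only WOX4a and PXYb overlapped, so that their order there is not resolved. The lead of ARK2 over WOX4b narrowed from 3.86 ± 0.233 to 2.12 ± 0.080 times (SD, n = 3 each). Differences between neighbours in the order of log2 fold changes were 0.86 between WOX4b and ARK2 (95% interval 0.72 to 0.99), 0.44 between PXYb and WOX4b (0.30 to 0.58) and 0.39 between PXYa and PXYb (given above). The genes were ordered by these same fold changes, so the sign of each difference was fixed in advance. The intervals are given as a description. The rises of WOX4a and PXYa were not told apart, with a difference of 0.16 (95% interval -0.0095 to 0.32).

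The genes around each member on its chromosome were called in both directions. Over all tested genes, 33.1% were called higher and 31.0% lower, with a median log2 fold change of 0.0068. Among the 10 tested genes on either side of ARK2 in identifier order, 11 were called higher and 5 lower, with a median log2 fold change of 0.25. Around WOX4b, 5 of 20 were higher and 8 lower (median -0.15), and around WOX4a 10 were higher and 7 lower (median 0.15). Around PXYa, 7 of 20 were higher and 5 lower (median 0.05), and around PXYb 9 were higher and 4 lower (median 0.20). ARK2 and WOX4b both lie on chromosome 2 with 80 tested genes between them, of which 32 were called higher and 21 lower (median 0.09). Taking the order of identifiers as the order of genes follows the naming convention and was not checked against a genome of this clone.

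**Figure D5:**
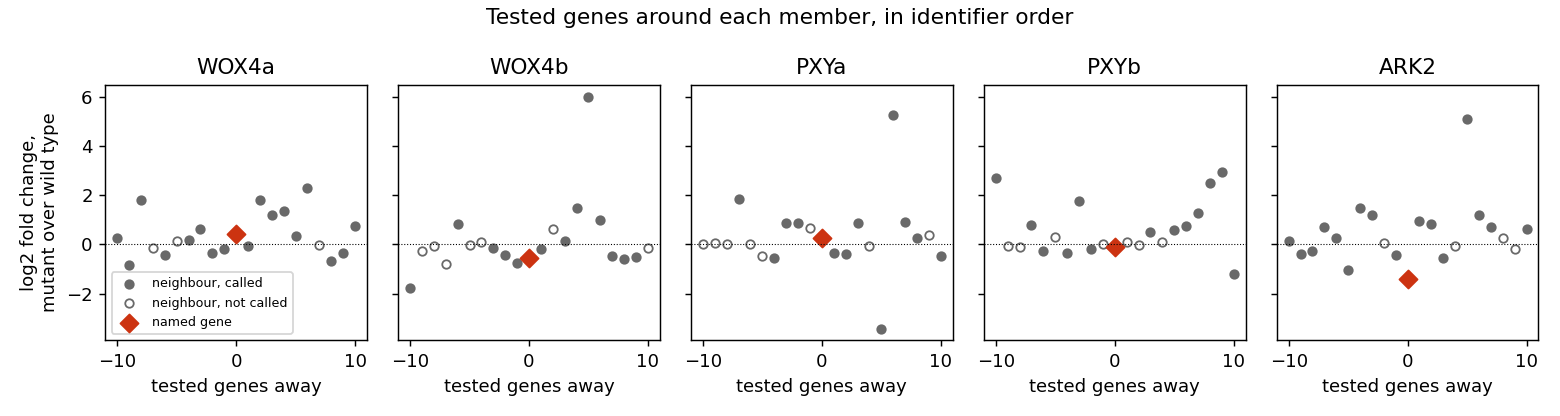
Log2 fold change of mutant over wild type (vertical axis) for the 10 tested genes on each side of each gene, by number of tested genes away in identifier order (horizontal axis); red diamonds are the named genes, filled circles called neighbours and open circles neighbours not called. The neighbours of ARK2 scatter around a median of 0.25 while ARK2 itself stands at -1.42.

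Where the identifier of ARK1 would stand on chromosome 11, the next row has a number that differs from it in the last digit. Whether that row is a revised model of the same gene was not checked, and it was not counted among the members. Its counts were 160, 164 and 208 in wild type libraries against 524, 458 and 480 in mutant libraries, which is 3.81 ± 0.392 against 10.97 ± 0.196 FPKM (SD, n = 3 each) over 2345 bp. All mutant libraries lay above all wild type libraries, and the log2 fold change was 1.40 (SE 0.085, adjusted p = 8.6e-20, edgeR). Of all tested genes, 34.5% likewise did not overlap on the higher side in CPM, and 33.1% were called higher.

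For each member, the tested gene of similar abundance (mean CPM within 2-fold) with the most similar profile was sought by Pearson's r of log2 CPM over the 6 libraries. These libraries form 2 genotype groups, so r reflects the direction of the change and also the deviations of single libraries. Each r is the highest of many over 6 libraries and is given as a description of the likest gene. For ARK2 it was Potri.007G008500.v4.1 (r = 0.9997), which fell by 0.94 on the log2 scale (adjusted p = 5.56e-28, edgeR), and 46.8% of the 919 genes of similar abundance had an r above 0.95. For WOX4b it was Potri.006G194900.v4.1 (r = 0.999, log2 fold change -0.54, adjusted p = 4.22e-11, edgeR), with 16.1% of 8778 genes above 0.95. The share of genes above 0.95 was lower for WOX4a, PXYa and PXYb, of which PXYb did not rise. Potri.003G126700.v4.1 followed WOX4a (r = 0.998, log2 fold change 0.17, adjusted p = 0.0121, edgeR) and Potri.006G238200.v4.1 followed PXYa (r = 0.992, log2 fold change 0.23, adjusted p = 2e-05, edgeR), while 0.787% of 10034 and 1.92% of 3911 genes passed 0.95. For PXYb the highest r was 0.991, and 0.616% of 5195 genes passed 0.95.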

How the data were processed

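Per the file headers, the authors deposited raw counts per gene and FPKM for each library. The deposited FPKM follow from the counts, their column total and a gene length in whole bp: 100% of values gave a whole length within 0.01 bp. Whether the 6 libraries of every gene gave the same length was not recorded. The aligner, counter, strand setting and genome build are not stated in the labels or headers. The whole count table was fitted in edgeR 4.0.16 (R 4.3.3): filterByExpr (minimum count 10, minimum total 15), TMM factors, quasi-likelihood F test without a block, Benjamini-Hochberg adjustment over 27382 genes, called under 0.05. Standard errors are the log2 fold change divided by the square root of F. Intervals for differences between genes add the variances of both. This takes the 2 genes as independent, although both were measured in the same libraries. The scripts were tested on simulated data. Alternatives used DESeq2 1.42.0 and limma 3.58.1 on log2(FPKM + 1) and log2(FPKM + 0.1). P-values from edgeR set the difference between genotypes against the spread between pools, which is estimated in part from all tested genes. For a gene whose pools spread more than the fit assumed, these p-values can be smaller than its own pools would give. Whether they also cover spread between mutant lines is not known from the sources used here. The 6 members and the lists were chosen with earlier results of these data known. The 19 gene lists (16 of pathways, 3 of tissue markers) matched 0 names in the table and were not run. Named genes were the members, their likest genes (2 that rose and 2 that fell by identifier) and, without identifiers, their neighbours. No columns of per-sample values were left unused.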

Additional observations from a re-analysis of the deposited data

How the results depend on the processing

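ARK2, WOX4a, WOX4b and PXYa kept their direction and their call under every tested alternative, with log2 fold changes from -1.47 to -1.28, 0.35 to 0.56, -0.61 to -0.42 and 0.22 to 0.40 respectively. PXYb did not. Its log2 fold change was 0.0052 with library totals only, 0.0054 with limma on log2(FPKM + 1) and 0.0056 with limma on log2(FPKM + 0.1), settings that share library totals as their scaling. It was -0.083 (adjusted p = 0.0876, edgeR) with library totals counted without the 10 most abundant genes, and ran from -0.15 to -0.095 when each library was left out in turn. Members called lower therefore numbered 2 or 3. The difference within the WOX4 pair ran from 0.96 to 1.05 and that within the PXY pair from 0.37 to 0.42. Calls over all genes ran from 15688 (DESeq2, 48.4% of 32412 tested) to 18564 (no filter), and 66.8% of calls were higher with library totals against 51.6% with TMM. Same-numbered libraries shared only a number (correlations of deviations -0.0565 to -0.00241); with the replicate block 17334 genes were called, PXYb stood at -0.12 (adjusted p = 0.0243, edgeR), and no member's call changed. The totals without abundant genes, the values relative to the median, the differences and sums within pairs and their alternatives were chosen after seeing the data. The order of levels, the ratios between genes and the differences between ordered fold changes were not planned beforehand either. Nor were the windows of 10 neighbours and the stretch on chromosome 2. The alternatives for gene lists and for the ARK pair were not run. With 430 to 8526 counts per library, a member not called under a setting is not shown to be unchanged.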
